A study of Homo sapiens with 6 samples.

Results

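The IL6 family cytokines, their receptors and the transcription factor STAT3 were followed in MDA-MB-231 cells after knockdown of ZNF148. The members were 10 genes: the ligands IL6, LIF, IL11 and CLCF1, the receptor chains IL6R, IL6ST, OSMR and LIFR, STAT3 itself, and the feedback inhibitor SOCS3. They were found by symbol in the deposited table of expression values, where they filled 11 of 24108 rows because SOCS3 had 2. MDA-MB-231 is an established line of triple-negative breast cancer, labelled basal. The samples were 3 replicates transduced with a luciferase hairpin in the LKO vector (shControl) and 3 transduced with a hairpin against human ZNF148 (shZnf148). Cells of both groups were exposed to lentivirus for 48 h and then selected for 24 h in 0.5 µg/ml puromycin, so the controls also carried a hairpin and had been through selection. Each group stands for a single hairpin, and the labels do not say whether the replicates were separate cultures, so the p-values measure the spread between these samples.

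Most cytokines of the IL6 family signal through gp130, the receptor chain encoded by IL6ST, while IL31 uses IL31RA with OSMR. IL6 and IL11 bind a receptor of their own (IL6R, IL11RA) before they engage gp130, LIF and CLCF1 use LIFR together with gp130, and oncostatin M can pair gp130 with OSMR. The receptor complex activates JAK kinases, which phosphorylate STAT3, and STAT3 induces SOCS3, which in turn blocks the JAK kinases at gp130. In breast cancer cells the axis is known for autocrine IL6 and for acute-phase and survival genes downstream of STAT3. RNA levels do not show how much STAT3 was phosphorylated, which was not measured here.

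Of the 9 members that could be tested, IL6 and OSMR were lower in shZnf148 and none was higher. IL6 fell to 43.4% of its shControl mean and OSMR to 52.7%. IL11 and LIFR were lower in every shZnf148 sample than in any shControl sample but did not pass the test. LIF, CLCF1, IL6ST, STAT3 and SOCS3 had overlapping groups. Values are FPKM, fragments scaled to transcript length and to the mapped fragments of the library, so levels of different genes can be compared. Fold changes and standard errors (SE) are on the log2(FPKM + 1) scale, from limma fitted over the 11777 rows whose mean reached 1 FPKM. A row was called at a Benjamini-Hochberg adjusted p under 0.05 and a change of over 1.5-fold. Over all tested rows 3.66% were called lower and 1.83% were called higher, so 2 of 9 and 0 of 9 members stand beside those shares. With 9 members such counts are small, and they carry no test. In bulk RNA, fewer cells of a type and less RNA per cell cannot be told apart.

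ZNF148, the targeted gene, was at 3.72, 4.36 and 4.30 FPKM in shControl and at 0.914, 0.282 and 0.834 FPKM in shZnf148, a log2 fold change of -1.63 (SE 0.18, adjusted p = 0.00990). Its call was lost without shControl replicate 1 (adjusted p = 0.0673) and without shControl replicate 3 (adjusted p = 0.0653). Relative depth, read from the steps between low values, was 0.806 to 1.13 of that of shControl replicate 1. The number of reads is unknown, so no counting interval is given. The basal and mesenchymal markers VIM, CD44, AXL, SPARC and MSN summed to 2869 to 2988 FPKM in shControl and 2365 to 2453 FPKM in shZnf148. All 4 that were tested (VIM, CD44, AXL and MSN) had lower groups without overlap, which 21% of all tested rows had. Of them 0 of 4 were called, beside 3.66% called lower and 1.83% called higher over all tested rows. CD44 (adjusted p = 0.0185) and AXL (adjusted p = 0.0364) passed the adjusted p alone, at log2 fold changes of -0.46 and -0.29. The sums of 5 leukocyte markers were 0.519 to 1.01 FPKM in shControl and 0.772 to 2.04 FPKM in shZnf148, with MS4A1 listed at 0 in all 6 samples and 0 of 5 tested. Sums of 3 endothelial markers stayed between 0.0260 and 0.166 FPKM, with 0 of 3 tested. The 4 fibroblast markers summed to 5.84 to 8.71 FPKM in shControl and 2.00 to 5.87 FPKM in shZnf148, with overlap. The highest sum was in shControl replicate 2, where DCN was at 2.82 FPKM and was 0 in every other sample. The lowest was in shZnf148 replicate 2, where PDGFRB was at 2.00 FPKM. Of the 4, PDGFRB alone was tested and was not called (log2 fold change -0.47, adjusted p = 0.313). The 5 luminal markers summed to 17.8 to 20.1 FPKM in shControl and 16.5 to 20.4 FPKM in shZnf148, with ESR1 listed at 0 throughout and 0 of 2 tested called. The part of the fibroblast and basal marker differences in the results was not tested.

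Upstream sequences are shown for IL6, OSMR and IL11, the 3 members with the most negative log2 fold changes, because the windows before the start of a gene are where its promoter lies. The promoter table of RefSeq (GRCh38.p14) matched 8 of 10 members, and LIF and CLCF1 were not matched. Each sequence is the 250 bases before the annotated start, written 5′ to 3′ on the strand of the gene, with capitals for the motif words found in it. The IL6 window lay at chr7:22726950-22727199 on the plus strand, the OSMR window at chr5:38845762-38846011 on the plus strand, and the IL11 window at chr19:55370464-55370713 on the minus strand.
IL6: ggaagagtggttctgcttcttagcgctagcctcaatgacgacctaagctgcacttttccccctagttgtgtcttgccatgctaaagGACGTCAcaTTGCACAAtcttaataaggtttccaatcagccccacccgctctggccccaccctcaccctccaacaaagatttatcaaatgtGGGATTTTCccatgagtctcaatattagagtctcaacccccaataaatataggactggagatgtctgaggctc
OSMR: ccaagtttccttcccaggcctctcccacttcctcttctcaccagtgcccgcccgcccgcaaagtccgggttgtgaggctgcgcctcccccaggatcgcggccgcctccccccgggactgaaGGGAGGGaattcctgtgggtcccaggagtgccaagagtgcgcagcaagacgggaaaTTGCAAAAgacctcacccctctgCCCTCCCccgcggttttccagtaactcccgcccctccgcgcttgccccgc
IL11: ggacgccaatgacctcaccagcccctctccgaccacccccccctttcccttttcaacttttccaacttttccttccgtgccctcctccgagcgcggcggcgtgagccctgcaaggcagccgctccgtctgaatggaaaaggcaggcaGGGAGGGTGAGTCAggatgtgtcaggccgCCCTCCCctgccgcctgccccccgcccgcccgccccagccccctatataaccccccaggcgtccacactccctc

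The words were searched on both strands of each 300-base window, which adds the 50 bases after the start. An NF-kB word, GGGNNTTTC, began at -73 in IL6 and was present in 4.78% of 35116 windows in the table. A C/EBP word, TTGCNNAA, began at -155 in IL6 and at -73 in OSMR and was also in a LIFR window, against 10.5% of windows. The core of a cyclic AMP response element, GACGTCA, began at -164 in IL6 and was held by 3.45% of windows. An AP-1 word, TGANTCA, began at -96 in IL11, where it follows directly on a GC-rich word, and after the start in OSMR and IL6R, against 7.71% of windows. The GC-rich word CCCTCCC was found in the OSMR window at -129 and -50 and in the IL11 window at -103, -74 and 36 bases after the start, and 26.6% of windows held it. That word was also in the windows of STAT3 and SOCS3, whose levels did not pass the test, and was not in that of IL6. The word TTCNNNGAA, to which STAT proteins bind, was held by 7.66% of windows and among the 8 matched members was found in windows of LIFR alone. The IL6ST window held none of the words. These matches describe letters, and binding was not measured here.

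IL6, the founding cytokine of the family, was at 32.6, 28.1 and 28.4 FPKM in shControl and at 13.97, 12.5 and 12.2 FPKM in shZnf148. Every shZnf148 sample was below every shControl sample, and neither group spread widely. Means of 29.7 ± 2.51 FPKM in shControl and 12.9 ± 0.948 FPKM in shZnf148 (SD, n = 3 each) gave a log2 fold change of -1.14 (SE 0.09, 95% confidence interval -1.35 to -0.93, adjusted p = 0.00475, limma), at rank 157 from the most negative of 11777. In the exact permutation test, two-sided, p was 0.1, which is as low as 3 against 3 samples can reach. Over all tested rows 21% were lower without overlap and 20% were higher without overlap, beside 4 and 0 of the 9 tested members.

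IL11, a gp130 cytokine known from bone and from breast cancer metastasis, was at 20.9, 16.7 and 22.3 FPKM in shControl and at 13.0, 6.07 and 12.4 FPKM in shZnf148. The groups did not overlap, but the shZnf148 samples were spread, with replicate 2 far below the others. Their coefficient of variation was 36.6%, against 14.6% in shControl. The log2 fold change was -0.92 (SE 0.27, interval -1.57 to -0.28) with an adjusted p of 0.0651, so IL11 was not called. Without shZnf148 replicate 2 the change was smaller, -0.61, yet passed both thresholds (adjusted p = 0.0359). In the 16 other settings tried it did not pass.

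LIF, known for holding cells in an undifferentiated state, was at 26.3, 20.3 and 24.3 FPKM in shControl and at 31.8, 25.1 and 29.9 FPKM in shZnf148. The lowest shZnf148 sample lay inside the range of shControl. The log2 fold change was 0.28 (SE 0.13, interval -0.02 to 0.58, adjusted p = 0.168). CLCF1, a neurotrophic ligand of the family that also acts on B cells, was at 17.4, 12.2 and 15.7 FPKM in shControl and at 18.8, 15.7 and 17.0 FPKM in shZnf148. Its log2 fold change was 0.18 (SE 0.14, interval -0.14 to 0.51, adjusted p = 0.388), and its groups overlapped. These intervals exclude falls of the size measured for IL6 but not modest rises.

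**Figure D1:**
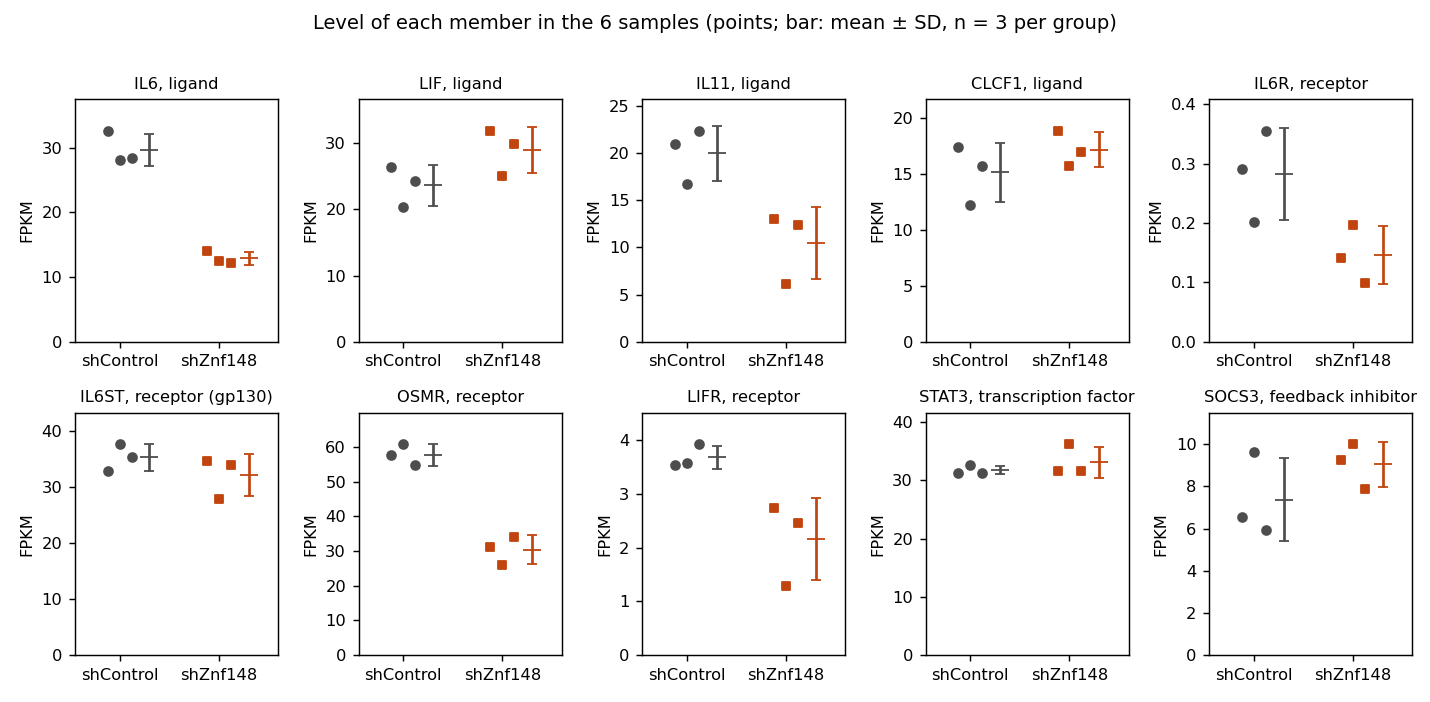
Level of each member in FPKM, a panel per gene with its own axis starting at 0, circles for the 3 shControl samples, squares for the 3 shZnf148 samples and bars for the mean ± SD. The groups are apart for IL6, IL11, OSMR, LIFR and IL6R, all lower in shZnf148, and overlap for LIF, CLCF1, IL6ST, STAT3 and SOCS3.

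Among the 3 tested receptor chains, OSMR was the only chain called. OSMR, the chain that gives oncostatin M its own complex with gp130, was at 57.7, 60.8 and 54.6 FPKM in shControl and at 31.2, 25.97 and 34.0 FPKM in shZnf148. All 3 shZnf148 samples were more than 20 FPKM below the lowest shControl sample. The log2 fold change was -0.91 (SE 0.11, interval -1.16 to -0.66, adjusted p = 0.0106), and the exact permutation p was 0.1. The call was lost without shControl replicate 1 (adjusted p = 0.0720) and without shControl replicate 3 (adjusted p = 0.0658), while the fold change stayed between -0.99 and -0.80 whichever sample was left out.

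LIFR, the receptor chain for LIF, was at 3.54, 3.58 and 3.92 FPKM in shControl and at 2.73, 1.29 and 2.46 FPKM in shZnf148. The groups were apart, and shZnf148 replicate 2 was again the lowest by a wide margin. The log2 fold change of -0.60 (SE 0.19, interval -1.06 to -0.14) had an adjusted p of 0.0838 and was not called. It passed in 0 of 16 settings, and at this low level its size moved with the pseudocount, from -0.81 at 0.1 FPKM to -0.28 at 5 FPKM.

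IL6ST, the gp130 chain that IL6, IL11, LIF and CLCF1 share, was at 32.9, 37.7 and 35.4 FPKM in shControl and at 34.7, 27.8 and 33.9 FPKM in shZnf148. Its groups overlapped, with a log2 fold change of -0.14 (SE 0.10, interval -0.38 to 0.11, adjusted p = 0.383). IL6R, the chain that binds IL6, was at 0.292, 0.202 and 0.355 FPKM in shControl and at 0.141, 0.196 and 0.0991 FPKM in shZnf148. It was below the filter of 1 FPKM and was not tested. The ranges of IL6R did not overlap, by a narrow margin and at levels where the number of reads behind a value is unknown. With no filter on low values its log2 fold change was -0.16 (SE 0.06, adjusted p = 0.148).

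STAT3 itself was at 31.3, 32.6 and 31.3 FPKM in shControl and at 31.5, 36.2 and 31.6 FPKM in shZnf148. The samples lay close together apart from shZnf148 replicate 2, the highest, and the groups overlapped. The log2 fold change was 0.06 (SE 0.07, interval -0.12 to 0.23, adjusted p = 0.625). SOCS3, which STAT3 induces and which shuts gp130 signalling down, had 2 rows. The row with the higher mean was at 6.56, 9.63 and 5.94 FPKM in shControl and at 9.24, 10.005 and 7.90 FPKM in shZnf148, with a log2 fold change of 0.28 (SE 0.17, interval -0.13 to 0.70, adjusted p = 0.296). The other row had means of 4.44 ± 0.596 and 4.198 ± 0.484 FPKM (SD, n = 3 each) and a log2 fold change of -0.06 (SE 0.12, adjusted p = 0.746). What the 2 rows stand for is not given in the table. Their sum was 11.3, 13.4 and 10.8 FPKM in shControl and 13.0, 14.05 and 12.6 FPKM in shZnf148, overlapping again (exact permutation p = 0.3).

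**Figure D2:**
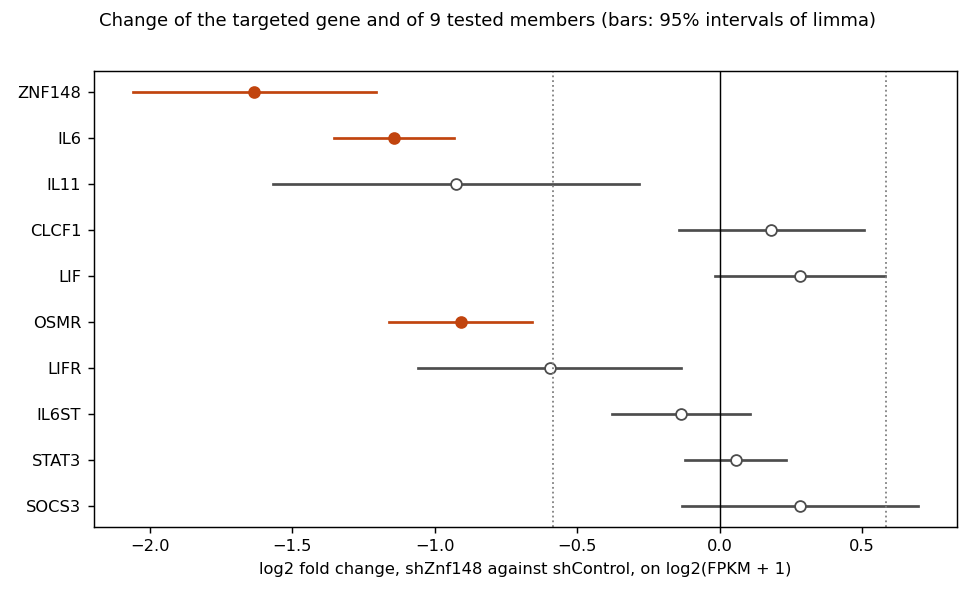
Log2 fold change of ZNF148 and each tested member, shZnf148 against shControl, on the log2(FPKM + 1) scale, with 95% confidence intervals from limma, filled points for called genes and dotted lines at 1.5-fold. The intervals of IL6 (-1.35 to -0.93) and OSMR (-1.16 to -0.66) lie beyond a 1.5-fold fall, and those of LIF, CLCF1, IL6ST, STAT3 and SOCS3 include 0.

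The order of the levels differed between the groups. In shControl OSMR was the highest, followed by IL6ST, STAT3, IL6, LIF, IL11, CLCF1, SOCS3, LIFR and IL6R. The neighbours STAT3 and IL6, LIF and IL11, and IL11 and CLCF1 overlapped there. In shZnf148 the order was STAT3, IL6ST, OSMR, LIF, CLCF1, IL6, IL11, SOCS3, LIFR and IL6R, and the neighbours from STAT3 to LIF all overlapped, as did IL6 with IL11 and IL11 with SOCS3. IL6 thus went from the highest ligand, above LIF without overlap, to a level below LIF and CLCF1 without overlap. OSMR went from above IL6ST without overlap to a level that overlapped it.

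The 4 ligands summed to 97.3, 77.4 and 90.7 FPKM in shControl and to 77.6, 59.3 and 71.5 FPKM in shZnf148, with a small overlap (exact permutation p = 0.2). Of that sum IL6 made up 33.5, 36.4 and 31.3% in shControl and 18.0, 21.1 and 17.1% in shZnf148. LIF made up 27.1, 26.2 and 26.8% in shControl and 41.0, 42.3 and 41.8% in shZnf148. The LIF share was nearly the same in every sample of a group, although the LIF level was not. The IL11 share went from 22.6% ± 1.76 to 14.8% ± 3.94 and the CLCF1 share from 17.0% ± 1.09 to 24.8% ± 1.42 (SD, n = 3 each). All 4 shares were apart between the groups (exact permutation p = 0.1 for each, the smallest possible), and because shares sum to a fixed total they are not independent of each other.

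The ratio of IL6 to LIF was 1.24, 1.39 and 1.17 in shControl and 0.439, 0.498 and 0.408 in shZnf148. The ratio of OSMR to IL6ST was 1.75, 1.61 and 1.54 in shControl and 0.901, 0.933 and 1.00 in shZnf148. Both ratios were lower in every shZnf148 sample than in any shControl sample (exact permutation p = 0.1 for each). Within shZnf148 the level of both OSMR and IL6ST was lowest in replicate 2, and their ratio there lay between those of the other replicates. The ratio of LIFR to IL6ST was 0.104 ± 0.00834 in shControl and 0.0659 ± 0.0172 in shZnf148 (SD, n = 3 each, exact permutation p = 0.1). The ratio of LIFR to OSMR did not part the groups, at means of 0.0640 and 0.0698 (exact permutation p = 0.8). STAT3 to IL6ST had means of 0.900 and 1.05 with overlapping groups (exact permutation p = 0.3).

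**Figure D3:**
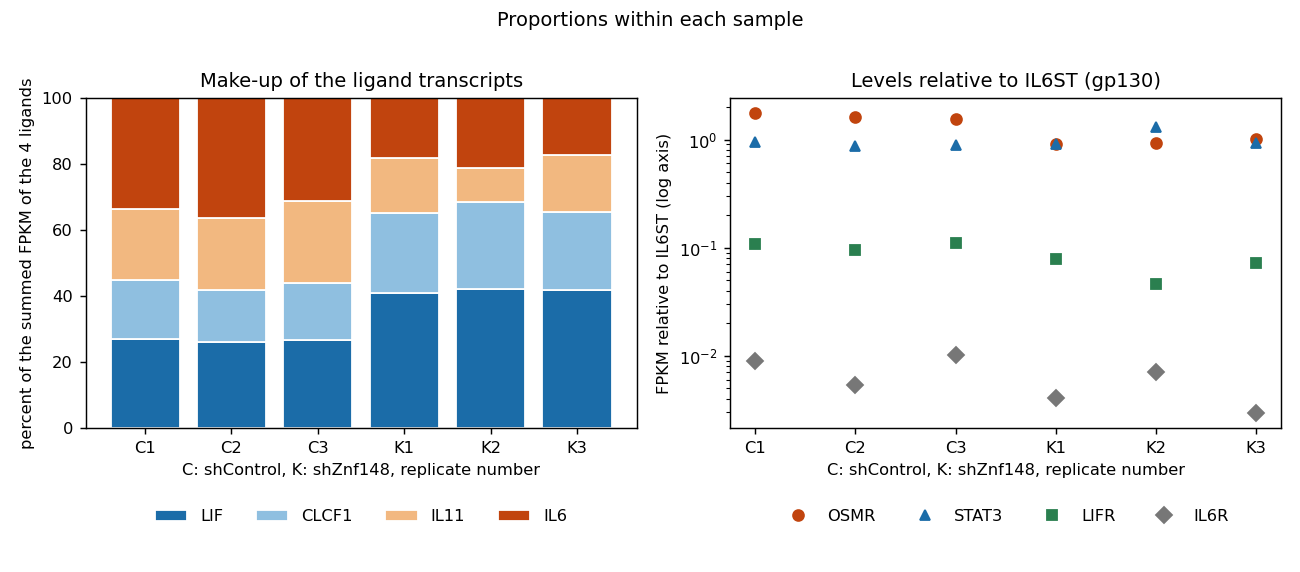
Left, the percent of the summed FPKM of the 4 ligands taken by each ligand in each sample, and right, the FPKM of OSMR, STAT3, LIFR and IL6R relative to IL6ST on a log axis. The LIF share is 26.2 to 27.1% in shControl and 41.0 to 42.3% in shZnf148, and OSMR relative to IL6ST goes from 1.54 to 1.75 down to 0.901 to 1.00.

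The rows of other genes whose profiles over the 6 samples were nearest to IL6 or OSMR were found by the root-mean-square distance between log2(FPKM + 1) values, each taken relative to its shControl mean. Nearest to IL6 were a row that joins BEX4 and NGFRAP1 (distance 0.0969), DLK2 (0.09999) and ARSJ (0.107). The joined BEX4 and NGFRAP1 row had means of 117 ± 4.85 FPKM in shControl and 51.1 ± 4.36 FPKM in shZnf148. DLK2, a relative of the Notch ligands, had means of 11.9 ± 1.43 and 5.19 ± 0.421 FPKM. Nearest to OSMR were PALLD (0.0536), an actin-binding protein, SDC1 (0.0586), a cell surface proteoglycan, and COL12A1 (0.0633), a collagen. SDC1 had means of 37.2 ± 2.99 and 19.0 ± 2.10 FPKM. All 6 nearest rows were called lower, which the choice by likeness to a called member makes probable, and the profiles share the same 6 libraries.

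The other genes of the family and pathway were taken from lists of their known members. In the list of other ligands and receptors, 0 of 6 tested genes were called in either direction. Over all tested rows 3.66% were called lower and 1.83% higher, so a count over 6 genes carries no test. The median of their log2 fold changes was -0.06, beside 0.01 over all tested rows and -0.14 over the tested members. OSM, the ligand of OSMR, was listed at 0 in all 6 samples, as were IL27 and IL31. IL11RA, the receptor of IL11, had means of 2.73 ± 0.567 and 2.49 ± 0.581 FPKM and a log2 fold change of -0.10 (adjusted p = 0.708). EBI3, a subunit of the IL27 cytokine, had means of 10.4 ± 1.02 and 12.6 ± 4.71 FPKM (log2 fold change 0.19, adjusted p = 0.577). IL27RA had means of 5.71 ± 0.442 and 5.14 ± 1.56 FPKM (adjusted p = 0.587). CTF1, cardiotrophin, was lower without overlap at 6.23 ± 0.849 against 4.42 ± 0.574 FPKM but did not pass the test (log2 fold change -0.41, adjusted p = 0.0724). CNTF was found only in a row joined with ZFP91, so its value cannot be given to CNTF, although that row is among the 6 tested and enters their median. CNTFR, the receptor that CLCF1 binds, was listed at 0 in all samples but shZnf148 replicate 1 (0.0574 FPKM).

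Downstream of gp130, 0 of 8 tested JAK kinases and adaptors were called, and the median of their log2 fold changes was 0.05. Over all tested rows 3.66% were called lower and 1.83% higher, so a count of 0 among so few genes says little. JAK1, the main kinase at gp130, had means of 37.5 ± 1.139 and 35.5 ± 2.91 FPKM (log2 fold change -0.08, adjusted p = 0.488). The adaptors SHC1 (log2 fold change 0.12, adjusted p = 0.263) and GRB2 (-0.29, adjusted p = 0.0810) did not pass. Of the negative regulators and of the proteases that shed IL6R from the cell surface, 0 of 10 tested were called. The same shares stand beside that count, and the median of the list was -0.03. SOCS1, a relative of SOCS3, was at 3.65, 2.54 and 3.05 FPKM in shControl and at 5.30, 7.43 and 3.85 FPKM in shZnf148. The groups were apart, but the log2 fold change of 0.65 had an adjusted p of 0.0879. ADAM10, a sheddase, had means of 77.3 ± 2.174 and 73.5 ± 6.55 FPKM (adjusted p = 0.528), and the phosphatase PTPN1 had means of 69.2 ± 3.23 and 70.0 ± 3.73 FPKM (adjusted p = 0.883). PIAS4, a SUMO ligase, had means of 19.7 ± 2.62 and 30.02 ± 9.70 FPKM with overlapping groups (log2 fold change 0.54, adjusted p = 0.161). Without shZnf148 replicate 3 it passed, at 0.80 (adjusted p = 0.0422).

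Among textbook target genes of STAT3, 4 of 22 tested genes were called lower and 0 higher (3.66% and 1.83% over all tested rows), and 18 had a log2 fold change below 0. Their median was -0.28, and 10 of 22 were lower and 2 of 22 higher without overlap (21% and 20% over all tested rows). By adjusted p alone, at any fold, 8.13% of all tested rows were lower and 5.46% were higher. MYC was lower by that rule (log2 fold change -0.31, adjusted p = 0.0431) and CCND1, a cyclin that drives entry into the cell cycle, was higher (0.58, adjusted p = 0.0169). The CCND1 means were 115 ± 11.03 and 172 ± 10.4 FPKM, just short of 1.5-fold, and it passed both thresholds in 6 of the other settings. Its adjusted p was 0.0786 without shControl replicate 1 and 0.0818 without shControl replicate 3. IRF1, a transcription factor of the interferon response, had the highest log2 fold change of the list (0.96) and groups apart, but did not pass (adjusted p = 0.0692). The called genes were ICAM1, LCN2, MUC1 and a row that joins SAA2 with SAA4.

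ICAM1, an adhesion molecule for leukocytes, was at 128, 131 and 117 FPKM in shControl and at 65.1, 54.3 and 60.4 FPKM in shZnf148 (log2 fold change -1.05, SE 0.09, adjusted p = 0.00529). The joined SAA2 and SAA4 row, which holds acute-phase serum amyloids, was at 953, 1088 and 941 FPKM in shControl and at 426, 363 and 368 FPKM in shZnf148 (-1.36, SE 0.09, adjusted p = 0.00318). Both had groups far apart with little spread, and both calls held in every setting tried. SAA1, another serum amyloid of the list, had overlapping groups and was not called (log2 fold change -0.45, adjusted p = 0.223). LCN2, an iron-siderophore carrier of the acute phase, was at 152, 404 and 182 FPKM in shControl and at 71.6, 65.1 and 68.4 FPKM in shZnf148. Its log2 fold change of -1.70 (SE 0.34, adjusted p = 0.0283) came with a shControl group in which replicate 2 was far above the others, and the call was lost with robust variance moderation (adjusted p = 0.0507), under the replicate block (adjusted p = 0.0586) and when any sample other than shControl replicate 2 was left out (adjusted p = 0.0517 to 0.0921). MUC1, a cell surface mucin, had means of 11.03 ± 0.941 and 6.53 ± 1.03 FPKM (-0.68, SE 0.12, adjusted p = 0.0223). Its call was lost when any shControl sample or shZnf148 replicate 3 was left out (adjusted p = 0.0509 to 0.0993), and its fold change with a pseudocount of 5 FPKM was -0.48. TIMP1 and BCL2L1, an inhibitor of matrix proteases and a survival factor, were not called at log2 fold changes of -0.15 (adjusted p = 0.395) and 0.07 (adjusted p = 0.589).

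Of 17 regulators of IL6 transcription and mRNA decay, all tested, 1 was called lower and 0 were called higher. Over all tested rows 3.66% were called lower and 1.83% higher, and a count this small carries no test. The median of the 17 log2 fold changes was -0.19. The called gene was ZFP36L1, which binds AU-rich elements and speeds the decay of cytokine mRNAs. It was at 115, 78.1 and 107 FPKM in shControl and at 61.8, 56.0 and 60.4 FPKM in shZnf148 (-0.72, adjusted p = 0.0277). The groups were apart, but the call was lost without shControl replicate 1 or 3 or without shZnf148 replicate 1 or 3 (adjusted p = 0.0566 to 0.105). NFKB2, an NF-kB subunit, was lower by adjusted p alone (-0.43, adjusted p = 0.0228), a rule by which 8.13% of all tested rows were lower. The NF-kB subunit RELA had means of 73.2 and 69.8 FPKM (log2 fold change -0.07, adjusted p = 0.583). The AP-1 subunits FOSL1 (-0.22, adjusted p = 0.130) and JUN (0.23, adjusted p = 0.117) did not pass. NFKBIZ was found only in a row joined with FAM55C, which is counted among the 17 but cannot be given to NFKBIZ alone. CEBPB, CEBPD and FOS belong both to this list and to that of the STAT3 targets.

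**Figure D4:**
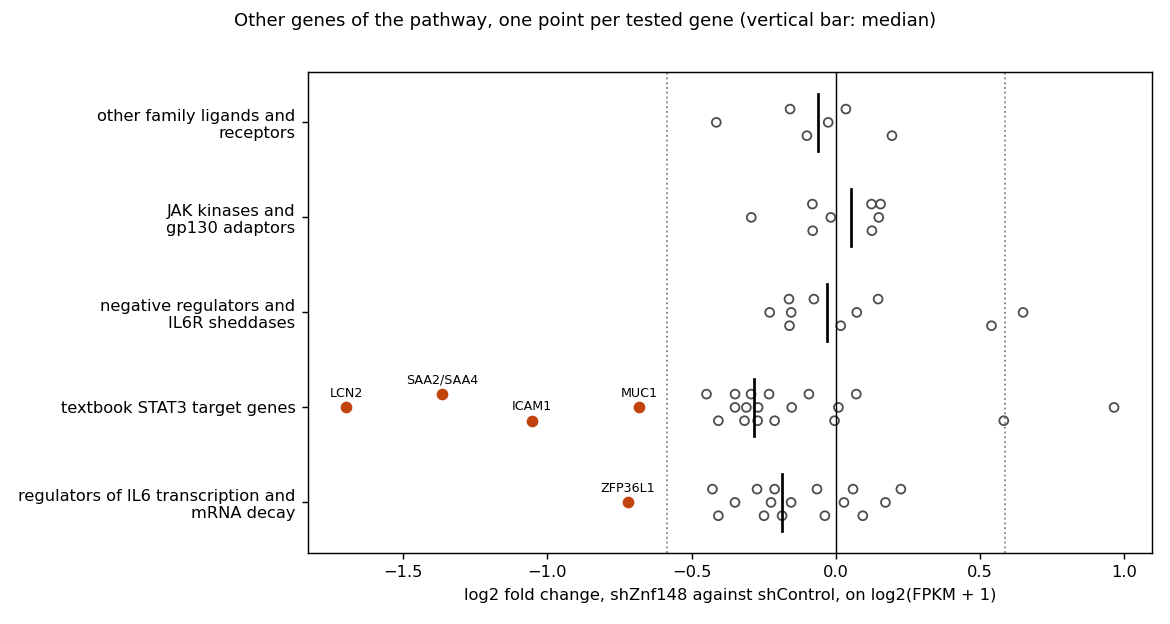
Log2 fold change (shZnf148 against shControl, log2(FPKM + 1) scale) of every tested gene of the 5 pathway lists, with called genes filled and named, a vertical bar at each list's median and dotted lines at 1.5-fold. The medians run from -0.28 for the STAT3 targets to 0.05 for the JAK kinases and adaptors, and called genes, all lower, are in the STAT3 targets (4) and the regulators of IL6 (1).

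Across the 17 settings tried beside the reported one, the call of IL6 held in 17, with a log2 fold change of -1.20 to -0.95 and an adjusted p of 0.00193 to 0.0454. OSMR held in 15, IL11 passed in 1, and LIF, CLCF1, IL6ST, STAT3 and SOCS3 passed in 0. The direction of STAT3 turned in 1 setting, at a log2 fold change of -0.01. LIF and CLCF1 kept a positive value and IL6ST, IL11 and OSMR a negative value in all 17. SOCS3 also stayed positive, in its row with the higher mean or, where rows were summed, in the sum. The other SOCS3 row (-0.06 as reported) was not followed over the settings.

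**Figure D5:**
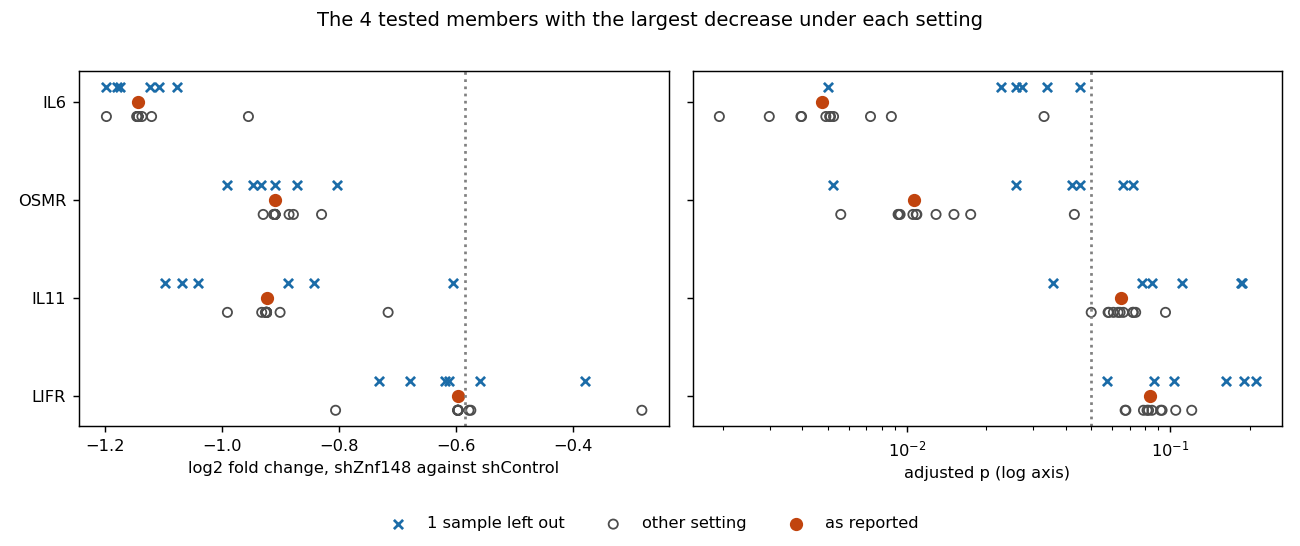
Log2 fold change (left) and adjusted p on a log axis (right) of IL6, OSMR, IL11 and LIFR as reported, with 1 sample left out and under the other settings, with dotted lines at a 1.5-fold fall and at an adjusted p of 0.05. All points of IL6 lie beyond both lines, OSMR crosses the p line in 2 settings, and IL11 lies beyond both lines in 1.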

How the data were processed

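Total RNA of 6 MDA-MB-231 samples was sequenced, 3 of shControl and 3 of shZnf148. The values the authors deposited are FPKM, in 1 table of 6 sample columns, and 0 columns were left unused. The submitters' processing notes name bcl2fastq 2.17.1.14, TopHat2 2.0.14, Cufflinks 2.2.1 and Cuffnorm 2.2.1 with the builds hg18 and hg19, whereas the study's methods name Salmon, GRCh38 and DESeq2, so which of these made the table could not be settled. The table holds no coordinates and no counts, and read numbers are unknown. Rows at 0 in all 6 samples numbered 7115, and a 0 can be a failed estimate.

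Members were matched to the gene names of each row, split at commas, and a row that joins several genes cannot be given to any of them alone. After conversion to log2(FPKM + 1), the 11777 of 24108 rows whose mean reached 1 FPKM entered a limma model (limma 3.58.1, R 4.3.3) on condition alone, with a mean-variance trend in eBayes and Benjamini-Hochberg adjustment over all tested rows. Single values were compared by exact two-sided permutation tests over the 20 assignments of samples, with a smallest p of 0.1. Where a gene had several rows, that with the highest mean was used. The steps were tested on simulated data.

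Groups came from the sample titles. The model was set on condition alone, with the replicate number as a block among the alternatives. Same-numbered samples did not deviate together (correlations of 0.00, -0.09 and 0.03). The text names the members, ZNF148, the called genes and the 3 most abundant other tested genes of each list, and the 3 rows nearest to each called member. IL11RA, CTF1, CNTFR, IRF1, SOCS1, MYC, SAA1, NFKB2, PDGFRB and genes listed at 0 were named after their values were seen. A gene of the lists is not reported here. The members and lists were chosen with earlier results of these data known. Alternatives covered the pseudocount, the filter, the scaling, the block, the variance model, summed rows and leaving out each sample. Promoter windows came from RefSeq (GRCh38.p14). Python 3.11.15, pandas 2.3.3 and matplotlib 3.10.9 were used for the other steps.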

Additional observations from a re-analysis of the deposited data

How the results depend on the processing

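Each of 17 alternative settings changed 1 choice. The count of rows called lower, 431, and higher, 216, became 204 and 76 with a pseudocount of 5 FPKM, and 216 and 99 with the replicate block. Leaving out 1 sample gave 19 to 393 rows called lower and 3 to 209 called higher. The low ends came without shControl replicate 3 (19 and 3) and without shControl replicate 1 (26 and 3), and without shControl replicate 2 there were 142 and 59. Without shZnf148 replicate 1 there were 206 and 64. The cause was not tested. With no filter on low values 329 and 158 rows were called. The share of calls that were lower was 66.6%, 72.9% with a pseudocount of 5 FPKM and 60.0% with upper-quartile scaling. With 1 sample left out it ran from 63.1% (shZnf148 replicate 3) to 89.7% (shControl replicate 1).

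Members called lower numbered 2 in the report and 1 to 3 when 1 sample was left out. OSMR was lost without shControl replicate 1 or 3, and IL11 was added without shZnf148 replicate 2. Members called higher numbered 0 in all 17. The replicate numbers share only a number, and no same-number correlation exceeded 0.1. Under the replicate block IL6 (adjusted p = 0.0331) and OSMR (adjusted p = 0.0432) stayed called, IL11 was at an adjusted p of 0.05003 and LCN2 was lost. No called gene named in the report turned its direction. The read number behind low values such as those of IL6R is unknown.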
